A study of Mus musculus with 10 samples.

Results

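Gamma-delta T cells were looked for among single cells of SW1 melanoma tumors by a rule on raw counts. A barcode, the tag of 1 droplet, was taken when it had at least 500 genes, at most 10% mitochondrial molecules, at least 2 unique molecular identifiers (UMIs, counted molecules) of Cd3d, Cd3e and Cd3g together, at least 1 UMI of Trdc, no UMI of Cd4, Cd8a or Cd8b1, and at most 2 UMIs of C1qa, C1qb and C1qc together. These limits left 89 of the 41936 barcodes in the 5 libraries, out of 31156 past the gene and mitochondrial limits and 2202 with the CD3 genes (the CD3 gate). Trdc, the CD3 genes, the coreceptor genes and the C1q genes were the measured values the members were chosen by, so they are a description only. The 89 barcodes, called the gamma-delta gate here, held 511479 UMIs, with a median of 4233 UMIs (1288 to 21640) and 1535 genes per barcode.

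All samples came from female C3H/HeJ mice, 4 to 6 weeks old, that carried SW1 melanoma cells under the skin of the right flank and whose tumors were sorted for CD45+ cells. A cohort was taken before treatment (pretreatment, day 0). The others drank control water or water with 100 mM L-fucose (L-fuc) freely, after 10 days of tumor growth by the labels, for 7 or 21 days, which gave the control and L-fuc libraries of day 7 and of day 21. Each condition is 1 library of pooled mice, so the spread between mice cannot be had and conditions were compared without a test. The labels give the cohort sizes as 3 and 6 mice in one protocol and as 5 in another, and write the dose as mM in one place and nM in another. The study's methods give a longer time of tumor growth than the labels. Each pool gave an expression library and a receptor library, 10 samples in all. The count of members was 13 in the pretreatment library, 17 in control day 7, 55 in L-fuc day 7, 1 in control day 21 and 3 in L-fuc day 21. The libraries held 14439185, 119047810, 88986101, 21727157 and 16589803 UMIs in that order. Between libraries, 706 barcode sequences were shared, of which 4 belonged to members, and none was gated in both of its libraries.

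Gamma-delta T cells carry an antigen receptor made of a gamma and a delta chain in place of the alpha and beta chains of CD4 and CD8 T cells. Each chain is joined from variable (V), joining and constant (C) segments during development, and the V segment used goes with the tissue and the cytokines of the cell. In tumors of mice, sets that make interferon gamma and kill, and sets that make interleukin 17, are both known.

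On the mm10 (GRCm38) genome with GENCODE vM21 annotation, the constant gene of the delta chain, Trdc, lies on the plus strand at chr14:54142851-54148868, upstream of that of the alpha chain, Trac, at chr14:54220521-54224206. Both are annotated as T cell receptor C genes of the same locus. The delta V genes counted most often here, Trdv2-2 (chr14:53960944-53961602) and Trdv4 (chr14:54074905-54075515), lie before them, as does Trav15-2-dv6-2 (chr14:53649404-53649994), a V gene that either an alpha or a delta chain can use. The gamma genes lie on chromosome 13, among them Tcrg-V6 (chr13:19190356-19190929), Tcrg-V1 (chr13:19339989-19340454) and Tcrg-C4 (chr13:19344558-19352756).

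The receptor libraries of the same pools amplify alpha and beta chains only, so they give a readout that the rule did not use. A productive alpha or beta contig was held by 18 of the 89 members. The third complementarity-determining regions (CDR3) of 4 of these barcodes are given because they show members with a beta chain alone and a member with both chains. The first 3 had a beta contig alone, and the last 2 sequences are the alpha and the beta chain of 1 barcode. Capitals mark the first codon, that of the conserved cysteine, and the last, that of the closing phenylalanine.
L-fuc day 21, TRBV19 with TRBJ2-7: TGTgccaccccggggggagaacagtacTTC
L-fuc day 7, TRBV19 with TRBJ2-7: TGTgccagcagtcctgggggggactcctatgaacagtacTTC
Control day 7, TRBV13-1 with TRBJ1-3: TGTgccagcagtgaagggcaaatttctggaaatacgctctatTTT
L-fuc day 7, TRAV4-2 with TRAJ30: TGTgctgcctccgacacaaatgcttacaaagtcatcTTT
L-fuc day 7, TRBV20 with TRBJ2-7: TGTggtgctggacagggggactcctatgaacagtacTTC
The barcodes of the first and the second sequence each held 6 Trdc UMIs, the highest number in the gate, with 14 and 7 UMIs behind their beta contigs, and shared their receptor with no other barcode. The third belonged to a clonotype of 3 barcodes, 1 of them among CD3 barcodes without Trdc, Cd4 or Cd8. The paired receptor was held by 4 barcodes, 1 of which fell in the CD4 gate, and the member that bore it had 1 Trdc UMI beside 21 UMIs of the CD3 genes.

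The CD4 gate (434 barcodes with Cd4 and no Cd8 or Trdc) had a contig in 79.3%, and the CD8 gate (630 barcodes with Cd8a or Cd8b1 and no Cd4 or Trdc) in 71.4%, against 20.2% of the gamma-delta gate (exact binomial 95% interval 12.4 to 30.1%). In the order of libraries above, the share was 7.69%, 17.6%, 23.6%, 0% (0 of 1) and 33.3% (1 of 3) in the gamma-delta gate, 85.7%, 71.0%, 77.8%, 85.7% and 100% in the CD4 gate and 91.1%, 65.4%, 69.4%, 75.0% and 66.7% in the CD8 gate. The gamma-delta share was the lowest of the 3 in each of the 5 pools, and its values did not overlap with either of the others. In barcodes with Ncr1, an activating receptor of natural killer (NK) cells, and no CD3 gene, the NK gate, the share was 0%, 0.563%, 0%, 0% and 0% (0.232% of its 863 barcodes), below the gamma-delta share in every pool but control day 21, where both were 0%. The mean difference was -67.6 percentage points (SD 14.3, n = 5) from CD4 and -57.1 points (SD 21.2) from CD8, and a two-sided exact sign-flip permutation test over the 5 pools gave p = 0.0625 for both, the smallest p that 5 pools allow. Against the 900 CD3 barcodes without Trdc, Cd4 and Cd8, of which 41.6% had a contig, the mean difference was -17.6 points (SD 36.5, n = 5, exact permutation p = 0.375). By library it was -69.8, -13.6, -18.1, -20 and 33.3 points, so L-fuc day 21 ran the other way, and the mean was -4.59 points without the pretreatment and -30.4 points without the L-fuc day 21 library (a check chosen after seeing the data). Binomial and Poisson intervals here cover counting error only, not the spread between mice.

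**Figure D1:**
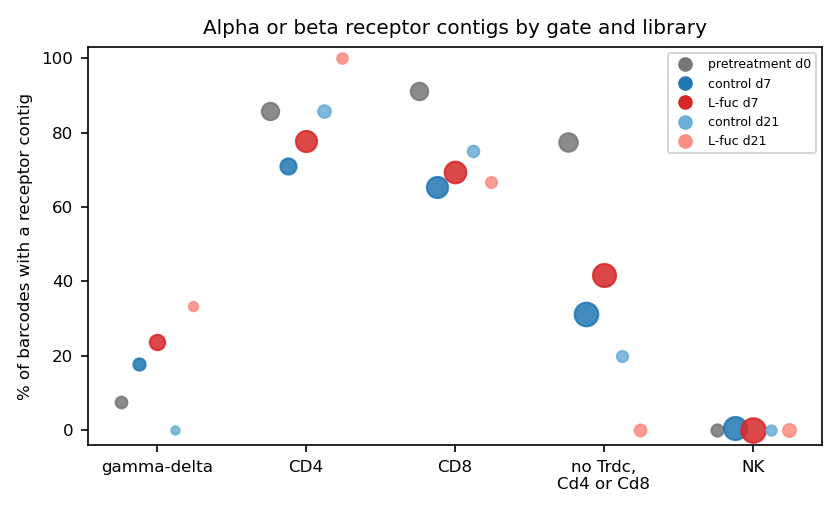
Share of barcodes with a productive alpha or beta contig (y axis, percent) in each of 5 gates (x axis), 1 point per library, with marker area growing with the number of barcodes. The gamma-delta points lie between 0% and 33.3%, under every CD4 and CD8 point, and its points of day 21 rest on 1 and 3 barcodes.

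Of the 18 members with a contig, 8 had a beta chain alone, 1 an alpha chain alone and 9 both, while 277 of the 344 contig-bearing barcodes of the CD4 gate had both. All 8 beta-only members also held a UMI of a gamma or delta V or of a gamma C gene, and 7 of them had 2 or more Trdc UMIs. Of the 9 with both chains, 5 held such a segment and 3 had 2 or more Trdc UMIs. Trac was detected in 16 of the 89 members (18%), against 69.1% of the CD4 gate, 58.1% of the CD8 gate and 3.59% of the 863 barcodes of the NK gate. The beta constant genes did not separate the gates in this way. Trbc1 was found in 48.3% of members against 35.0% of the CD4 and 30% of the CD8 gate, and Trbc2 in 41.6% against 50.9% and 48.1%.

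The gate was further checked against receptor segments other than Trdc. A UMI of any gamma V, delta V or gamma C gene was found in 72 of the 89 members (80.9%, interval 71.2 to 88.5%), against 13.4% of the CD4, 35.6% of the CD8 and 17.7% of the NK gate. With barcodes thinned to 1000 UMIs to set depth equal, which left out none of the gamma-delta, 4 of the CD4, 3 of the CD8 and 28 of the NK barcodes as too shallow, the shares were 42.7%, 4.65%, 15% and 7.07%. Delta V genes are on the same transcript as Trdc, so their detection is not independent of the rule, whereas gamma chains are separate transcripts. A delta V gene was found in 48 members (53.9%) and also in 12.4% of the NK gate, against 4.15% of the CD4 and 3.33% of the CD8 gate. Gamma V genes were found in 42 members (47.2%), against 8.06% of the CD4, 26.3% of the CD8 and 2.55% of the NK gate. Gamma C genes were found in 39 members (43.8%), against 5.07%, 19.2% and 5.10%. After thinning, gamma V genes were at 16.9% (9.75 to 26.3%) in the gate and 10.2% (7.95 to 12.8%) in CD8. Gamma C genes were then at 13.5% (7.17 to 22.4%) and 5.42% (3.78 to 7.50%). The thinned intervals of gate and CD8 thus overlap for gamma V and for gamma C. Part of the gamma signal is shared with CD8 barcodes: Trgv2 was found in 22.5% of members and 19.2% of the CD8 gate, while Tcrg-V1 was found in 21.3% against 4.29%. The gamma V and C genes include near-identical copies, so reads could be split among them and the single gamma genes are uncertain.

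Low counts set the edges of the gate. Trdc was at 1 UMI in 41 members, 2 in 23, 3 in 16, 4 in 4, 5 in 1 and 6 in 4, and the CD3 genes summed to exactly 2 in 8 members. Just outside, 32 barcodes with Trdc had 1 CD3 UMI, 192 had none, 69 had more than 2 C1q UMIs, 12 had Cd4, 20 had Cd8 and 8 had both. The contig share was 19.5% in members with 1 Trdc UMI and 20.8% in those with more. A Trdc UMI was found in 0 of 200 B cells (Cd79a and Cd79b summing to at least 3, median 4376.5 UMIs), which allows up to 1.83%, in 1.08% of macrophages (at least 10 C1q UMIs, median 5012 UMIs), in 2.55% of CD4 and 3.43% of CD8 barcodes with a contig, and in 13.4% of the NK gate. Most of these B cells (119) were of the pretreatment library. The 21 of control day 7 allow up to 16.1% and the 17 of L-fuc day 7 up to 19.5%.

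NK-type transcripts go with a sizeable share of the gate. Ncr1 was found in 36 of the 89 members (40.4%), against 4.84% of the CD4 and 6.35% of the CD8 gate. Members with Ncr1 had a median of 6095.5 UMIs and those without 3647. Another gamma or delta segment was held by 24 of the 36. Of the 17 members in which no such segment was found, 12 had Ncr1 and 4 had a contig. Barcodes with neither a contig nor Ncr1 numbered 42, and 38 of these had a gamma or delta segment. Where a barcode holds transcripts of several cell types, 1 cell and 2 cells in a droplet cannot be told apart by these counts. Scrublet, which scores likeness to simulated doublets, put 11 members among the highest scores. These were 6 of the 17 in control day 7 and 5 of the 55 in L-fuc day 7. The number marked was set per library by its number of barcodes, at 3442 of 20741 in control and 1526 of 13811 in L-fuc day 7. Of the CD3 barcodes, 167 of 755 and 125 of 991 were marked. The marked share of members was thus higher in control day 7, and whether its members hold more doublets was not tested.

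**Figure D2:**
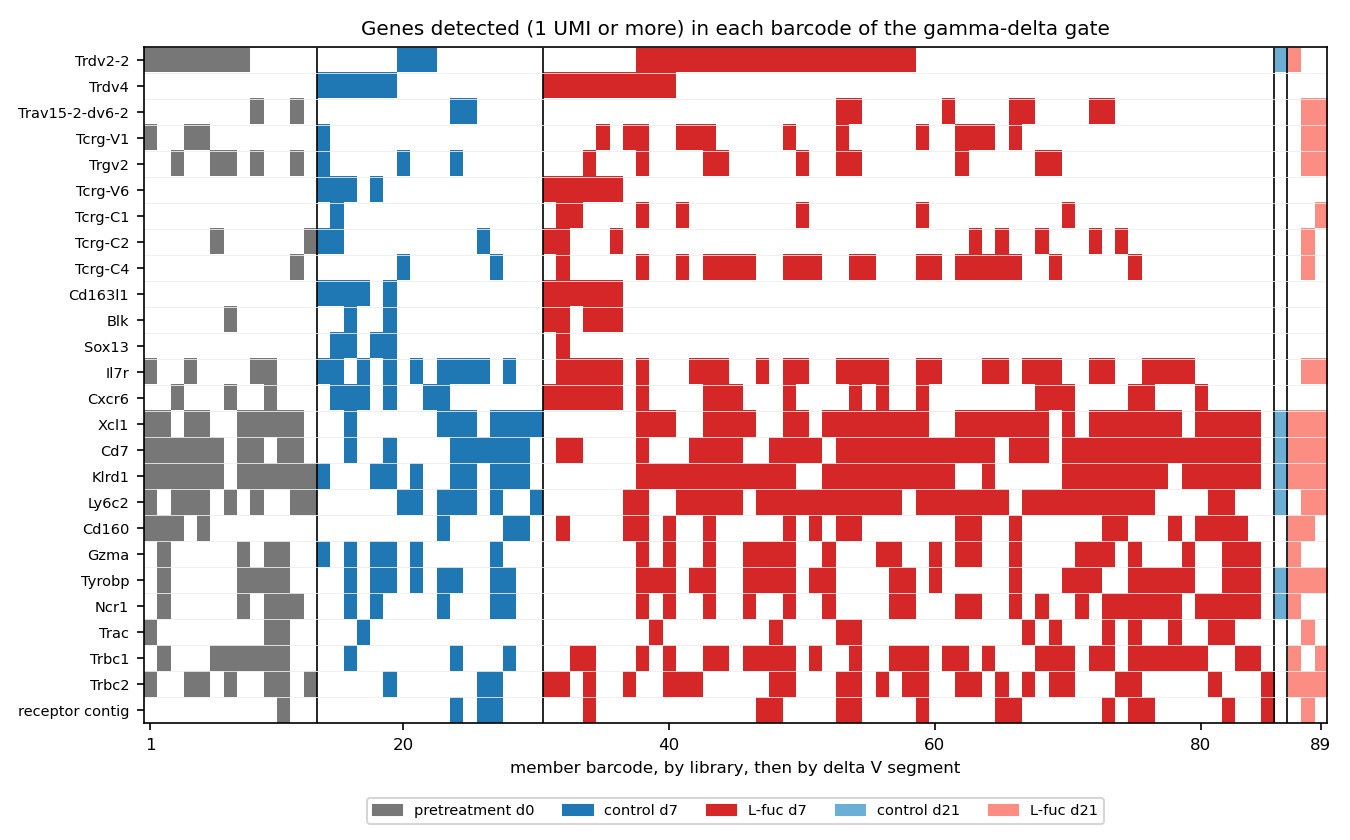
Detection (colored, at least 1 UMI) of receptor segments and other genes (y axis) in each of the 89 members (x axis). Members are ordered by library, within it by delta V gene and then by Cd163l1 and Tcrg-V6, which sets such members side by side. All 10 members with Tcrg-V6 and all 11 with Cd163l1 are among the 16 with Trdv4, in the day 7 libraries. Klrd1 and Ly6c2 are found in 29 and 25 of the 34 members with Trdv2-2, and in 62 and 55 of all 89. Of the 16 members with Trdv4, 6 hold Klrd1 and 2 hold Ly6c2.

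Trdv2-2 was found in 34 members (38.2%) and Trdv4 in 16 (18%), with 3 holding both and 42 holding neither. Of the 16 with Trdv4, 11 had Cd163l1, which encodes the scavenger receptor SCART1 known from interleukin 17 type gamma-delta cells, and 10 had Tcrg-V6, the gamma V gene that pairs with Trdv4 in the invariant cells of skin, uterus and other tissues. All 11 members with Cd163l1 had Trdv4, 9 had Tcrg-V6, 9 Il7r (interleukin 7 receptor), 10 Cxcr6 (a homing receptor of tissue lymphocytes), 7 Blk (a kinase of B and gamma-delta cells) and 4 Sox13 (a transcription factor of the gamma-delta lineage). Of the same 11, none had Trdv2-2 or Ly6c2, and 1 each had Xcl1, Ncr1 and a contig. The 34 members with Trdv2-2 held neither Cd163l1 nor Tcrg-V6. Of these, 29 (85.3%) had Klrd1 (CD94, an NK-type receptor chain), beside 69.7% of all members, and 25 (73.5%) had Ly6c2 (an antigen of memory and interferon-primed lymphocytes), beside 61.8%. Cd7, Xcl1 (a chemokine that draws XCR1+ dendritic cells) and Ncr1 were found in 70.6%, 67.6% and 35.3% of them, beside 70.8%, 65.2% and 40.4% of all members. These sets were formed after the values were seen, over cells that share libraries, and carry no test.

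Trdv2-2 was found in 8 of 13 pretreatment members, 3 of 17 of control day 7, 21 of 55 of L-fuc day 7, 1 of 1 of control day 21 and 1 of 3 of L-fuc day 21. Its level in the first 3 libraries was 501, 39.0 and 117 CPM (UMIs of the gene scaled to 1000000 UMIs of the summed members). Trdv4 was found in 0 of 13, 6 of 17, 10 of 55, 0 of 1 and 0 of 3 members, with 312 CPM in control and 96.9 CPM in L-fuc day 7. Cd163l1 followed it, in 0 of 13, 5 of 17 and 6 of 55, with 247 CPM in control and 129 CPM in L-fuc day 7. Within day 7 the share with Trdv4 was 35.3% for control (14.2 to 61.7%) and 18.2% for L-fuc (9.08 to 30.9%), and the share with Trdv2-2 was 17.6% (3.80 to 43.4%) and 38.2% (25.4 to 52.3%). The intervals of both genes overlap between the libraries. In the pretreatment library, 0 of 13 allows up to 24.7% of barcodes with a Trdv4 UMI, which does not limit the share of cells that express it.

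A list of 22 genes of interleukin 17 type cells was detected in part. Il17a (chr1:20730905-20734496, which encodes interleukin 17A), Il17f, Il22 and Ccr6 had no UMI in the 89 members. Il23r, the interleukin 23 receptor, was found in 1 member, Il1r1 in 6 and Zbtb16 (PLZF) in 5, while Il7r was found in 45 members, Maf, a transcription factor of several T cell types, in 24 and Rora, a nuclear receptor, in 15. Il17a was found in 1 barcode each of the CD4 and CD8 gates and in none of the NK gate. Cd163l1 was found in 12.4% of members against 0.461% of the CD4 gate and none of the CD8 and NK gates, Blk in 8.99% against 1.61%, 0.794% and 0.232%, and Sox13 in 5.62% against none in all of the 3. Of the 22 genes, 17 had a UMI in the gate, and their summed level was 935 CPM against 863 CPM in CD4, 454 CPM in CD8 and 537 CPM in NK. Of these, 7 were abundant enough to be tested between gates and 0 were called against the CD4, CD8 or NK gate. Over all genes 1.64%, 0.304% and 0.668% were called, so no call among 7 says little. The medians of the 7 were -0.20, 1.01 and 1.35 on the log2 scale over CD4, CD8 and NK. Over all genes they were -0.06, -0.06 and -0.04.

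The share of the gamma-delta gate among CD3 barcodes was 3.49% in the pretreatment library (13 of 373, interval 1.87 to 5.89%), 2.25% in control day 7 (17 of 755, 1.32 to 3.58%), 5.55% in L-fuc day 7 (55 of 991, 4.21 to 7.16%), 2.04% in control day 21 (1 of 49) and 8.82% in L-fuc day 21 (3 of 34, 1.86 to 23.7%). At day 7 the intervals of control and L-fuc did not overlap, and at day 21 they did. The ratio of L-fuc to control was 2.46 (exact conditional 95% interval 1.41 to 4.53) at day 7 and 4.32 (0.347 to 227) at day 21. With another gamma or delta segment required, the shares at day 7 were 1.59% (12 of 755) and 4.54% (45 of 991), a ratio of 2.86 (1.49 to 5.93). Without members with Ncr1 the ratio was 1.97 (0.983 to 4.21), and with no C1q UMI allowed in gate and denominator it was 1.56 (0.738 to 3.68). Over all barcodes past the limits in place of CD3 barcodes it was 6.41 (3.66 to 11.8), since CD3 barcodes themselves were 755 of 17897 in control and 991 of 9034 in L-fuc day 7.

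Trdc was also compared outside the gate between the libraries of day 7. In the NK gate it was found in 14 of 355 barcodes (3.94%) of control and 95 of 463 (20.5%) of L-fuc day 7, a ratio of 5.20 (2.95 to 9.88), with median depths of 2776 and 3389 UMIs. After thinning to 1000 UMIs it was 2.02% for control (0.817 to 4.12%) and 6.22% for L-fuc day 7 (4.17 to 8.87%). In the pretreatment library it was found in 5 of 16 NK barcodes. In macrophages the share was 0.754% for control (0.345 to 1.43%) and 2.07% for L-fuc day 7 (1.40 to 2.95%), at median depths of 5274 and 4282 UMIs. After thinning to 1000 UMIs it was 0.252% (3 barcodes, 0.0519 to 0.734%) and 0.277% (4 barcodes, 0.0755 to 0.707%). In CD8 barcodes with a contig it was 2.48% in control and 5.10% in L-fuc. After thinning these were 1.24% (2 barcodes) and 0.510% (1 barcode). In CD4 barcodes with a contig it was 2.0% and 3.63%, and 2.0% (1 barcode) and 1.04% (2 barcodes) after thinning. The median depth of members was 3022 UMIs in control and 4155 in L-fuc day 7, and with all barcodes thinned before gating the ratio of gamma-delta shares was 2.11 (0.837 to 6.35). The part of these differences in the ratio was not tested.

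**Figure D3:**
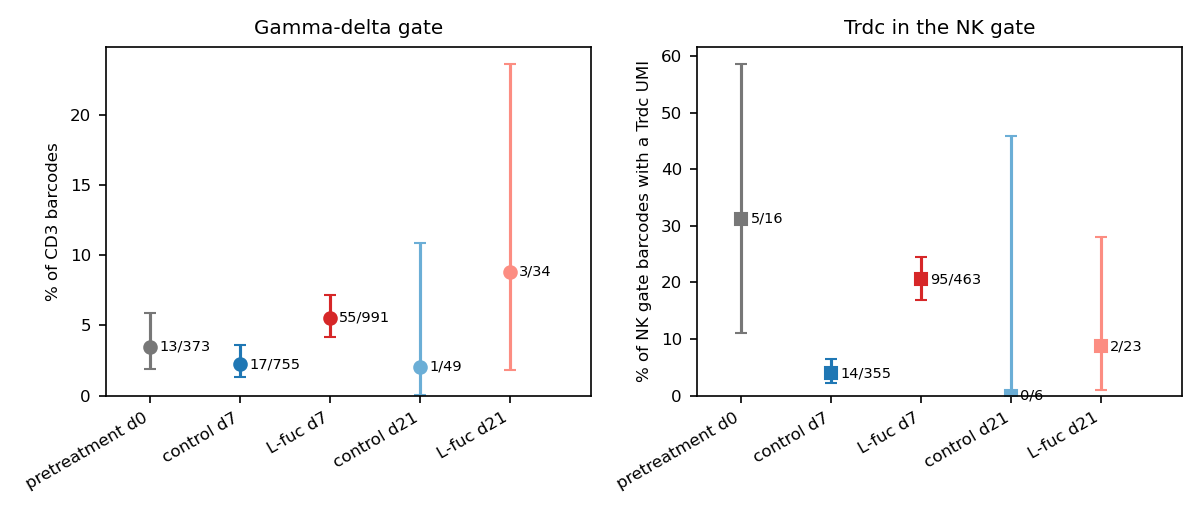
Left, share of the gamma-delta gate among CD3 barcodes, and right, share of NK gate barcodes with a Trdc UMI (y axes, percent), in the 5 libraries (x axes), with exact binomial 95% intervals, which cover counting error only. L-fuc day 7 lies above control day 7 in both panels, at 5.55% against 2.25% and at 20.5% against 3.94%, and the day 21 libraries rest on 1 and 3 members.

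Members were next compared with the CD4, CD8 and NK gates of the same libraries. UMIs were summed per gate and library where a library had at least 10 barcodes of the gate, which gave 3 gamma-delta sums (pretreatment, control and L-fuc day 7) among 15, and edgeR's quasi-likelihood test was fitted to 6583 genes with the library as a block. A gene was called at a Benjamini-Hochberg adjusted p under 0.05. The genes of the rule and Ncr1 were left out. Against CD4, 108 genes were called (1.64% of those tested), 45 higher (0.684%) and 63 lower (0.957%) in the gamma-delta gate. Against CD8 it was 20 (0.304%), with 7 higher (0.106%) and 13 lower (0.197%), and under RLE scaling 10 higher and 12 lower. Against NK it was 44 (0.668%), with 38 higher (0.577%) and 6 lower (0.0911%), a split that changed to 116 and 90 with no filter beyond 1 UMI and to 3 and 3 after thinning. The same way against both T cell gates were 17 genes (0.258%), 6 higher (0.0911%) and 11 lower (0.167%). The L-fuc day 7 library holds 340654 of the UMIs of the gate, and without it 3 genes were called against CD4, 0 against CD8 and 0 against NK by the same edgeR test (261, 164 and 244 at an unadjusted p under 0.05).

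Of the 6 genes higher than in both T cell gates, 3 were V genes that a delta chain can use. Trdv2-2 was at 501, 39.0 and 117 CPM in the pretreatment, control day 7 and L-fuc day 7 sums of the gate, against 10.9, 2.84 and 3.61 CPM in CD4 and 15.4, 1.85 and 4.16 CPM in CD8. Every gamma-delta value lay above every CD4 and CD8 value. The log2 fold change was 5.18 (SE 0.42, edgeR adjusted p = 6.67e-06) over CD4 and 4.67 (SE 0.40, adjusted p = 1.14e-05) over CD8. Trdv4 was at 0, 312 and 96.9 CPM, so its pretreatment value overlaps with the other gates, at 57 UMIs against 7 in CD4 and 3 in CD8. Its log2 fold change was 5.62 (SE 0.86, adjusted p = 0.00399) over CD4 and, as a ratio of counts, 140 (45.5 to 698, counting error only) over CD8. Trav15-2-dv6-2 was at 80.8, 52.0 and 29.4 CPM, 19 UMIs against 3 in CD4 and 1 in CD8, which is a ratio of 36.7 (10.8 to 194) and 140 (22.2 to 5808). As Trdv2-2 and Trdv4 lie on the transcript that the rule required, they are not independent support for the gate. Either an alpha or a delta chain can use Trav15-2-dv6-2, so the counts do not show which transcript its UMIs came from.

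Cd160 and Klra7 are receptors of NK and other cytotoxic lymphocytes. Cd160 (chr3:96798763-96829351), a receptor of NK and intraepithelial lymphocytes, was at 97.0, 52.0 and 126 CPM against 3.11, 2.84 and 8.43 CPM in CD4 and 39.1, 13.9 and 31.5 CPM in CD8. The gate was above both others in all 3 libraries, with a log2 fold change of 4.11 (SE 0.41, edgeR adjusted p = 0.000126) over CD4 and 1.73 (SE 0.34, adjusted p = 0.0402) over CD8. Klra7 (chr6:130218605-130233322), of the Ly49 family of NK receptors, was at 16.2, 26.0 and 79.3 CPM against at most 9.03 CPM in the 3 CD4 and 7.14 CPM in the 3 CD8 sums. Its 30 UMIs in these sums all came from members with Ncr1: without them it had no UMI and its fitted value turned negative. The log2 fold change of Cd160 without members with Ncr1 was 0.28 over CD8 (adjusted p = 0.954) and 2.67 over CD4 (adjusted p = 0.237).

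**Figure D4:**
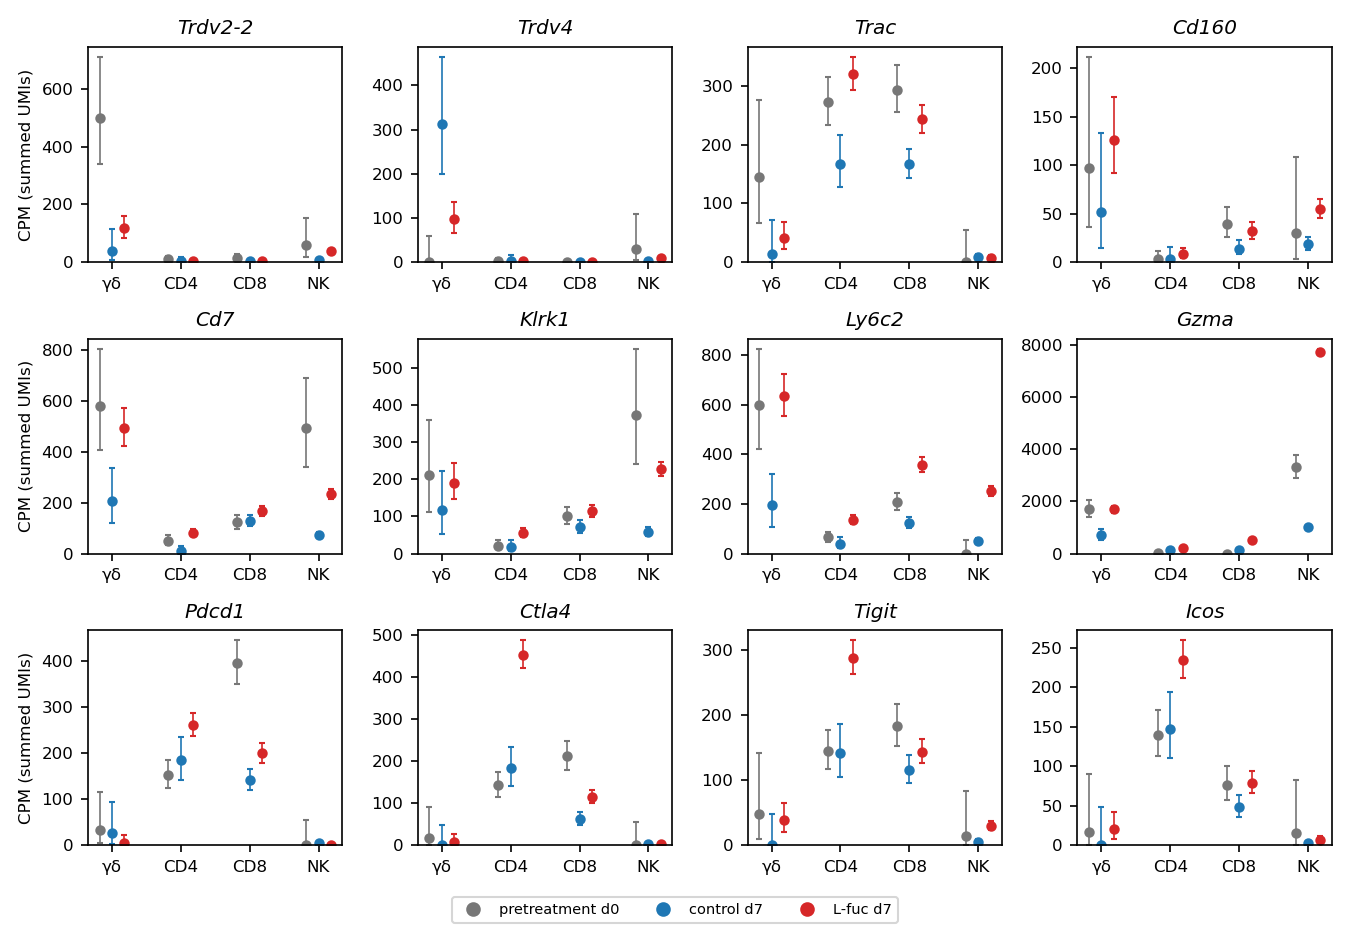
CPM (y axis, linear, a scale per gene) of 12 genes in the summed UMIs of 4 gates (x axis), with 1 point for each of the pretreatment, control day 7 and L-fuc day 7 libraries and exact Poisson 95% intervals that cover counting error only. Trdv2-2, Cd160 and Cd7 of the gamma-delta gate lie above the CD4 and CD8 points of the same library, and Pdcd1, Ctla4 and Trac lie under them, while Gzma and Klrk1 are as high or higher in some NK sums.

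Trac, Pdcd1, Ctla4 and Themis were among the 11 genes lower than in both T cell gates. Trac was at 145, 13.0 and 41.1 CPM against 272, 167 and 320 CPM in CD4 and 293, 167 and 243 CPM in CD8, with no overlap, and its log2 fold change was -2.35 (SE 0.41, edgeR adjusted p = 0.00879) and -2.11 (SE 0.41, adjusted p = 0.0355). Pdcd1 (PD-1) was at 32.3, 26.0 and 5.87 CPM against 152, 184 and 261 CPM in CD4 and 396, 142 and 200 CPM in CD8. The gate lay under both in every library, by a log2 fold change of -4.06 (SE 0.72, adjusted p = 0.00922) and -3.95 (SE 0.71, adjusted p = 0.0283). Ctla4 was at 16.2, 0 and 8.81 CPM against at least 143 CPM in CD4 and 62.0 CPM in CD8, with a log2 fold change of -5.17 (SE 0.71, adjusted p = 0.00152) and -4.07 (SE 0.75, adjusted p = 0.0303). Themis, a signalling adaptor of thymocyte selection, had 2 UMIs in the gate against 134 in CD4 and 249 in CD8, a ratio of counts of 0.0866 (0.0104 to 0.319) and 0.0591 (0.00712 to 0.216).

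Tyms, which makes thymidylate, had no UMI in the 3 gamma-delta sums, and against the floor of 3 counts over the group it was at least 9.83-fold lower than in CD4 and at least 7.84-fold lower than in CD8. Top2a was at 32.3, 26.0 and 8.81 CPM against 112, 272 and 114 CPM in CD4 and 62.8, 227 and 150.5 CPM in CD8, a log2 fold change of -3.21 (SE 0.56, edgeR adjusted p = 0.00888) and -3.10 (SE 0.56, adjusted p = 0.0283). Pclaf, Hells and Hist1h2ap were also called lower against both, as was Gstp3, a glutathione transferase. Of the 12 genes of a cycling list, all tested, 2 were lower against CD4, 2 against CD8 (both Top2a and Tyms) and 1 against NK, and the list medians were -2.40, -2.44 and -1.57 beside -0.06, -0.06 and -0.04 over all genes. Mki67, the usual proliferation marker, was found in 10.1% of members against 16.4%, 20.5% and 11.7% and was not called.

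Of 12 tested NK-type receptor genes, 7 were higher than in the CD4 gate (Cd244a, Cd7, Klrb1c, Klrb1f, Klre1, Klrk1, Tyrobp), with a list median of 2.26 on the log2 scale beside -0.06 over all genes. Against CD8 and NK 0 of 12 were called, at medians of 1.34 and -0.18. Cd7 was at 582, 208 and 493 CPM in the gate against 51.2, 11.3 and 80.7 CPM in CD4, a log2 fold change of 3.15 (SE 0.40, edgeR adjusted p = 0.00105), and at 123, 129 and 167 CPM in CD8. Klrk1 (NKG2D) was at 210, 117 and 191 CPM against 21.7, 17 and 56.6 CPM in CD4, a log2 fold change of 2.29 (SE 0.39, adjusted p = 0.00694). Tyrobp, which encodes the adaptor DAP12 of NK receptors, was found in 48.3% of members, 23.7% of the CD4, 26.3% of the CD8 and 65.7% of the NK gate. Of the 36 members with Ncr1, 28 had Tyrobp. In the 42 members with neither a contig nor Ncr1 it was 11, while Klrd1 and Cd7 were each found in 26 of those 42. The part of droplets that hold an NK cell in these counts was not tested.

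Of 9 tested inhibitory receptor genes, 5 were lower (Ctla4, Lag3, Pdcd1, Tigit, Tox) and Cd160 was higher than in CD4, at a list median of -2.81. Against CD8, Ctla4 and Pdcd1 were lower and Cd160 higher, at a median of -2.44. Against NK none of the 9 was called. Lag3 was found in 4.49% of members against 34.8% of the CD4 and 31.6% of the CD8 gate, and Tigit in 11.2% against 45.2% and 35.4%. Of 9 tested helper and regulatory genes, 5 were lower than in CD4 (Cd40lg, Foxp3, Icos, Il2ra, Tnfrsf4), at a median of -3.0, and 0 were called against CD8. Foxp3, which defines regulatory T cells, had no UMI in the gate and was at least 13.2-fold lower than in CD4 against the same floor. Helper and regulatory cells belong to the CD4 gate by its definition.

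Cytotoxic genes were not uniform across the gates. Of 17 tested type 1 and cytotoxic genes, Gzma (granzyme A) and Ly6c2 were higher and Ccl4 lower than in CD4, Gzmk was lower than in CD8, and Cd27 and Ly6c2 were higher than in NK. Gzma was found in 24 of the 36 members with Ncr1, 9 of the 53 without and 7 of the 42 with neither Ncr1 nor a contig. Ly6c2 was at 598, 195 and 634 CPM in the gate, against 65.2, 39.7 and 137 CPM in CD4 and 207, 123 and 357 CPM in CD8. It was the highest of these 3 gates in each library, with a log2 fold change of 2.69 (SE 0.43, edgeR adjusted p = 0.00505) over CD4 and 0.85 (adjusted p = 0.655) over CD8. Xcl1 was found in 65.2% of members against 9.45% of the CD4, 16.0% of the CD8 and 26.4% of the NK gate. It was found in 34 of the 36 members with Ncr1, 24 of the 53 without and 18 of the 42 with neither Ncr1 nor a contig. Its log2 fold changes of 1.88, 0.36 and 0.68 over CD4, CD8 and NK were not called (edgeR adjusted p = 0.209, 0.974 and 0.776). Ifng, which encodes interferon gamma, was found in 19.1% of members against 32.5%, 31.1% and 16.2%, also without a call.

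Of 13 tested genes of T cell signalling, Cd5, Cd6, Lat, Skap1 and Thy1 were higher than in NK. The rule required CD3 genes of one gate and none of the other, so such a difference follows the choice of members. Cd5, an inhibitor of receptor signalling, was also lower than in CD4 by a log2 fold change of -2.51 (SE 0.42, edgeR adjusted p = 0.00643), as were Cd6 and Cd28, and Txk, a Tec family kinase of T and NK cells, was higher. Bcl11b, a transcription factor of T cell commitment that was chosen after its values were seen, was 2.98 (SE 0.41, adjusted p = 0.00226) above NK on the log2 scale. Cxcr6 was above NK by 3.38 (SE 0.57, adjusted p = 0.00923), and S1pr1, which guides exit from tissue, by 3.88 (SE 0.54, adjusted p = 0.00226).

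Within the gate, L-fuc and control were compared at day 7 as 1 library of 55 members (340654 UMIs) against 1 of 17 (76971 UMIs), so every difference compares these libraries and not the conditions, and no test is possible. A minimum of 30 UMIs over the pair of libraries left 1924 genes, of which 275 (14.3%) lay past 2-fold on the log2 ratio of CPM with 1 UMI added, 135 (7.02%) toward L-fuc and 140 (7.28%) toward control, and the median over all genes was -0.03. For 39 of them the whole interval lay past 2-fold. The 10 largest ratios toward L-fuc include genes carried by 1 barcode. All 144 UMIs of S100a9 and all 104 of S100a8, calprotectin genes of neutrophils, came from 1 L-fuc barcode, as did 104 of the 106 UMIs of Osm and 86 of the 97 of Cxcl10. Akap12 came from 3 barcodes and Alas2, of heme synthesis, from 9. Over more barcodes stood Tnfrsf9 (4-1BB, a costimulatory receptor; 37 UMIs in 10 barcodes against none, at least 2.79-fold higher against a floor of 3 counts), Dock8 (30 UMIs in 21 barcodes against none, at least 2.26-fold) and Fermt3 (48 UMIs in 30 barcodes against 1), both of which serve lymphocyte migration.

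All 14 type 1 and cytotoxic genes with enough counts had a ratio above 0 in log2 units, 7 of them past 2-fold, with a median of 0.98 beside -0.03 over all genes. Ncr1 moved the same way, from 5 of 17 members (29.4%) in control to 24 of 55 (43.6%) in L-fuc. Without members with Ncr1, a check chosen after seeing the data, 8 of the 14 genes fell under the minimum of 30 UMIs. The 6 that kept it (Ccl5, Gzma, Il2rb, Ly6c2, Nkg7 and Xcl1) were above 0, 4 of them past 2-fold, where 17.7% of all 718 genes with that minimum were past 2-fold in either direction and 8.50% were so in the higher direction. Over all 14 genes, 5 were higher and 2 lower past 2-fold (Ccl4, with 0 UMIs against 4, and Tbx21, with 3 in each library), and the median was 0.31 beside -0.08 over all genes. Xcl1 was at 195 CPM (15 UMIs in 8 of 17 members) in control and 687 CPM (234 UMIs in 37 of 55) in L-fuc, a log2 ratio of 1.73 (1.07 to 2.68). Ly6c2 was at 195 and 634 CPM, a log2 ratio of 1.62 (0.95 to 2.56), and Nkg7, of cytotoxic granules, at 494 and 1400 CPM, a ratio of 1.47 (1.03 to 2.02). Gzma was at 715 and 1694 CPM and its log2 ratio was 1.22 (0.84 to 1.67). The pretreatment members, which had drunk no L-fuc, were at 259 CPM for Xcl1, 598 CPM for Ly6c2, 1713 CPM for Gzma, 2069 CPM for Nkg7 and 194 CPM for Gzmb. For Ly6c2, Gzma, Nkg7 and Gzmb the control day 7 library was thus the lowest of the 3, with the other two closer to each other. Gzmb had 3 UMIs in control and 60 in L-fuc (39.0 and 176 CPM), and Gzmc none against 31, of which 20 in 1 barcode. The same log2 ratios in the NK gate of the same libraries were 1.95 for Xcl1, 2.29 for Ly6c2, 2.34 for Nkg7 and 2.92 for Gzma. In the CD8 gate they were -0.49, 1.53, 0.54 and 1.77, and in the CD4 gate 0.88, 1.69, 0.86 and 0.66. The gates share the 2 libraries, so these are values side by side and not repeats.

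**Figure D5:**
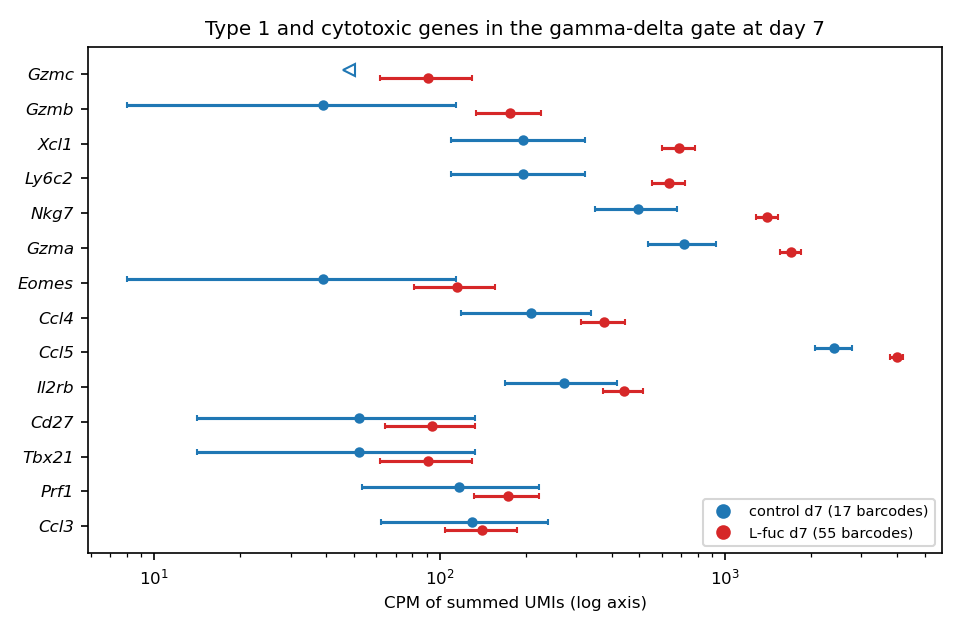
CPM (x axis, log scale) of the type 1 and cytotoxic genes with at least 30 UMIs in the gamma-delta members of control (17 barcodes) and L-fuc (55 barcodes) day 7, with exact Poisson 95% intervals that cover counting error only. The L-fuc point lies to the right for each gene shown; the open triangle marks the upper limit for Gzmc, which had no UMI in control.

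Of the 10 lowest ratios, 5 rest largely on 1 barcode. Ccl8 (30 UMIs in control, 28 of them in 1 barcode, against none), Ctsl (32 of 39 in 1 barcode), Hmox1 (42 of 48) and Spp1 (41 of 55) have most of their control UMIs in 1 barcode, as has Fabp5 (25 of 37). Ecrg4 was found in 13 of the 17 control and 7 of the 55 L-fuc members, at 896 and 161 CPM, a log2 ratio of -2.47 (-3.01 to -1.94). Serpinh1, a collagen chaperone, was found in 10 of 17 and 4 of 55. Ccn1, Rhox5 and Metrn complete the 10. Trdv4 had a log2 ratio of -1.70 (-2.49 to -0.86) and Cd163l1 of -0.98 (-1.74 to -0.08), beside 1.21 (-0.06 to 3.93) for Trdv2-2. Of the 22 interleukin 17 type genes, 5 had enough counts. Among those, 1 had a ratio above 0 and 1 lay past 2-fold toward control, at a median of -0.77 beside -0.03 over all genes. The list summed to 113, 1546 and 1013 CPM in the pretreatment, control day 7 and L-fuc day 7 members.

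Markers of other cells moved between the libraries along with these values. Of 10 macrophage genes, 3 belong to the rule, and the other 7 summed to 307, 922 and 925 CPM in the pretreatment, control day 7 and L-fuc day 7 members, led by Apoe (325 CPM) and Cd68 (260 CPM) in control and by Lyz2 (658 CPM) in L-fuc day 7, against 451 CPM in the CD4, 515 CPM in the CD8 and 404 CPM in the NK gate. Dendritic cell genes (8, led by Cd74, with Xcr1 and Siglech at 0) summed to 1455, 2819 and 1042 CPM. Tumor genes (10, led by Sparc, with Mlana, Pmel, Dct, S100b and Mia at 0) summed to 16.2, 1091 and 385 CPM. Red cell genes (6, led by Hbb-bs) summed to 0, 3651 and 7999 CPM, and Hbb-bs was found in 0 of 13, 7 of 17 and 48 of 55 members. The 6 neutrophil genes summed to 0, 39.0 and 875 CPM, B cell genes (6, led by Ighm) to 566, 52.0 and 64.6 CPM, mast cell genes to 0, 52.0 and 61.6 CPM and fibroblast and endothelial genes (7, led by Lum at 182 CPM in control and by Pecam1 at 41.1 CPM in L-fuc day 7) to 32.3, 312 and 64.6 CPM. Between gates, edgeR called Hbb-bs above CD4 (log2 fold change 2.59, SE 0.60, adjusted p = 0.0488), and called Osm above CD4 and NK and S100a9 above NK, which rest on the single barcodes above. Of the macrophage list 4 of 10 genes were tested, of B cells 6 of 6 and of dendritic cells 3 of 8. Of the tumor list it was 3 of 10 and of fibroblasts and endothelium 3 of 7. None of these was called against any of the 3 gates. Over all genes 1.64%, 0.304% and 0.668% were called against CD4, CD8 and NK, so no call among so few genes says little. The part of these other cells in the differences at day 7 was not tested.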

How the data were processed

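The authors deposited, for each pool of sorted cells, 1 matrix of UMI counts per gene and barcode from 10x 5' libraries and the receptor contigs of the same pool. The submitters' processing notes name Cell Ranger 3.0, Seurat 4.0 and mm10, while the matrix headers name Cell Ranger 7.1.0. From the contig lists, productive alpha or beta contigs were matched to barcodes within a pool. Gene positions are those of GENCODE vM21 (20 of 20 matched). Barcodes were gated on raw counts, summed per gate and library, and fitted with edgeR 4.0.16 (TMM, library as block, quasi-likelihood test, Benjamini-Hochberg adjustment) in R 4.3.3, with 7 residual degrees of freedom. With the library as a block, its p-values measure how differences between gates vary from library to library, with the spread estimated over all gates together. They do not measure the spread between mice. On simulated data with 6100 genes, the fit recovered 71.3% of genes changed by 2 on the log2 scale against CD4 and 20.7% of those changed by 1. All gates and libraries were simulated with the same mean profile and a fixed spread, without library effects. Genes were changed in the gamma-delta gate only, so these rates need not hold for the real sums. The day 7 ratios used CPM after 1 UMI was added. Thinning drew 1000 UMIs per barcode. The members and gene lists were chosen with earlier results of these data known. Genes named are those of the lists, the 10 highest and 10 lowest called the same way against CD4 and CD8, the 10 highest and 10 lowest at day 7 and the 20 most abundant. Alternatives included DESeq2 1.42.0, other filters, gates without contigs, Ncr1 or high doublet scores (Scrublet in scanpy 1.11.5), and each library left out. Scrublet's automatic threshold marked 0 barcodes in L-fuc day 7, so the highest scores at the rate expected from the number of barcodes were used, and doublets were otherwise kept. A few genes of the lists and calls are not reported here.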

Additional observations from a re-analysis of the deposited data

How the results depend on the processing

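The day 7 ratio of gamma-delta shares of CD3 barcodes stayed between 1.56 and 3.37 under all alternatives except the denominator of all barcodes, which gave 6.41. At day 21 it ranged from 2.88 to 6.80, with no value after thinning or without Ncr1, where control held no member. The mean contig difference from CD4 ranged from -63.1 to -71.1 points and from CD8 from -50.5 to -68.4. Genes called by edgeR against CD4, CD8 and NK (108, 20 and 44) were 389, 168 and 206 with no filter on low counts, 12, 0 and 6 with no library block (478, 265 and 376 at an unadjusted p under 0.05), 21, 3 and 17 with sums of at least 20 barcodes, 40, 9 and 29 with at least 2 Trdc UMIs, 32, 8 and 6 after thinning, 35, 9 and 33 without members with Ncr1 (chosen after seeing the data), and 120, 39 and 71 by DESeq2. Without members with a contig 21 genes were called against NK. Without the highest Scrublet scores 10 were called against CD8, 1 higher and 9 lower, where the main fit had 7 higher and 13 lower. With each library left out in turn the calls ranged from 3 to 137 against CD4, 0 to 41 against CD8 and 0 to 63 against NK. Without control day 7 they were 40, 7 and 21, without L-fuc day 7 they were 3, 0 and 0, and without control day 21 they were 137, 41 and 63. With at least 20 barcodes or at least 2 Trdc UMIs only the L-fuc day 7 sum of the gate enters the fit, which assumes that this lone sum varies like those of the other gates, and without Ncr1 only control and L-fuc day 7 enter, while the cause of the other changes was not tested. Of 464 values of named genes between gates, 289 kept direction and call, 173 kept the direction only and 2 reversed, both Klra7 without members with Ncr1, at fitted log2 values of -5.21 (CD4) and -4.98 (CD8) that rest on 0 UMIs. Trdv2-2 had no value after thinning or without L-fuc day 7. Genes past 2-fold at day 7 (275) were 110 with at least 60 UMIs, 27 after thinning and 127 without Ncr1, fewer being tested in each. Of 144 values of named genes at day 7, 116 stayed, 19 moved and 9 reversed. These were S100a9 and S100a8 (both -2.15) and Osm (-0.56) without the barcode of most UMIs, Osm and Gzmc (both -0.45) without Ncr1, Tnfrsf9 and Cxcl10 (both -0.11) and Akap12 (-0.69) after thinning, and Hmox1 (0.088) without contigs. Apart from Hmox1 they rest on at most 5 UMIs in L-fuc and 1 in control, where the added UMI at unequal depth sets the sign, and none was lower in L-fuc in CPM. Removal of the top barcode and of Ncr1 were chosen after seeing the data. No paired analysis was possible between conditions because each has a single pooled library and the labels tie no animal to several pools, whereas gates were compared within libraries. Depth limits what low genes can show, since a gene with no UMI in the 3 gamma-delta sums may still be at 6.26 CPM.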

Other observations

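All 15 fucosylation genes of the list that were in the matrices had a UMI in the gate, and 81 of the 89 members held at least 1 of them. Selplg, which encodes the fucosylated surface glycoprotein PSGL-1, was found in 80.9% of members at 579 CPM, against 66.6% of the CD4, 71.1% of the CD8 and 55.4% of the NK gate. Fuca1, a lysosomal fucosidase, was found in 23.6% of members, Pofut2, which fucosylates proteins in the endoplasmic reticulum, in 19.1%, and Fut8, the core fucosyltransferase, in 5.62%. Fcsk, the kinase that starts the salvage of free fucose, was found in 2.25%, and so was Gmds, of the pathway that makes GDP-fucose from mannose, beside 9.22% of the CD4 and 10.5% of the CD8 gate. Of the 17 genes of the list, 6 were tested between gates by edgeR, and 0 were called against CD4, CD8 or NK. Over all genes 1.64%, 0.304% and 0.668% were called. The medians of the 6 were -0.08, 0.07 and -0.17 on the log2 scale, beside -0.06, -0.06 and -0.04 over all genes.

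Besides mitochondrial and ribosomal protein genes, the most abundant transcripts of the gate were Gm42418, at 51492 CPM, and the thymosins Tmsb4x and Tmsb10, at 11375 and 11142 CPM. Ccl5, a chemokine of cytotoxic lymphocytes, was the most abundant gene of the type 1 list at 4114 CPM, with 8292 CPM in the pretreatment, 2404 CPM in control day 7, 3984 CPM in L-fuc day 7, 0 CPM in control day 21 (1 member) and 1880 CPM in L-fuc day 21 (3 members).

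The 4 members of day 21 can be listed singly. The control barcode had 5932 UMIs and held Trdv2-2, Ncr1, Xcl1, Klrd1, Cd7 and Ly6c2. Of the 3 L-fuc barcodes, 1 held Trdv2-2, 2 held Trav15-2-dv6-2, Tcrg-V1 and Trgv2, and all 3 held Xcl1, Cd7 and Klrd1.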
